A study of Mus musculus with 14 samples.

Results

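Ferrostatin-1 (Fer1) dependence of the macrophage response to 4-hydroxytamoxifen (4OHT) supernatants was read from a design of 2 by 2 groups, as the log2 difference of 4OHT against ctrl minus the log2 difference of 4OHT+Fer1 against Fer1. This difference of differences is called the interaction: a negative value means that 4OHT lowered a gene more, or raised it less, in the arm without Fer1. The 12 samples of these 4 groups, of 14 in the series, entered the analysis, and every gene that passed a filter on low counts was used, which was 12418 of the 55414 genes listed. The 2 samples in fresh medium stayed out.

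The samples were primary bone marrow-derived macrophages (pBMDMs) of C57BL/6N wildtype mice, differentiated with M-CSF and then held for 24 h in filtered culture supernatant of Pfa1 cells. Pfa1 is a single line of mouse embryonic fibroblasts (MEFs) in which 4OHT switches on a Cre that deletes Gpx4, the enzyme that reduces lipid hydroperoxides in membranes. The supernatants came from untreated Pfa1 MEFs (ctrl), from MEFs given 4OHT at 1 µM (4OHT, "Tam" in the sample titles), from MEFs given Fer1 at 1 µM (Fer1), or from MEFs given both (4OHT+Fer1), with 3 replicates in each group. All macrophages were of the same genotype and carried no Gpx4 deletion of their own. The 4OHT and the Fer1 were added to the MEFs, so what either compound itself did to the pBMDMs cannot be told apart from what the MEFs released.

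Ferroptosis is an iron-dependent death in which lipid peroxides build up in membranes once GPX4 fails, and Fer1 is a lipophilic radical trap that stops it. Fer1 leaves the Gpx4 deletion itself in place, so the arm with Fer1 holds supernatant of MEFs that were given 4OHT while the chain of lipid peroxidation was blocked. Macrophages grown in M-CSF divide, make cholesterol and desaturated fatty acids for new membranes, and adjust antigen presentation and innate receptors to what they take up.

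Total counts per sample lay between 7823051 and 11052352, so that 3 counts corresponded to 0.271 to 0.383 CPM, the count as scaled to the size of its library. That range is without TMM factors, which lay between 0.982 and 1.06 and are included in the CPM levels below. The macrophage identity of the samples was checked on 8 markers, none of which had an interaction p under 0.05. Their summed level was 19714 to 28309 CPM in ctrl, 28887 to 44550 CPM in 4OHT, 22889 to 30293 CPM in 4OHT+Fer1 and 22116 to 28482 CPM in Fer1. Lyz2 made up most of the sum, with means of 18657 CPM in ctrl and 26616 CPM in 4OHT. Itgam (758 and 629 CPM), Fcgr1 (367 and 298 CPM) and C1qa (553 and 530 CPM) had lower means in 4OHT, and the other markers had higher means. Fibroblast markers summed to 28.3 to 69.7 CPM in ctrl, 26.3 to 79.4 CPM in 4OHT, 25.7 to 163 CPM in 4OHT+Fer1 and 27.8 to 195 CPM in Fer1. Neutrophil markers summed to 2.87 to 17.3 CPM, 4.10 to 28.2 CPM, 5.11 to 17.3 CPM and 4.48 to 17.7 CPM in the same order of groups, with Ly6g and Elane at 0 in every sample. The part of these cells in the results was not tested. T cell markers reached at most 1.03 CPM, with Cd3e and Cd3g at 0 throughout, and B cell markers at most 3.5 CPM, with Pax5 at 0. Dendritic cell markers stayed at or below 1.61 CPM, mast cell and basophil markers at or below 3.08 CPM and erythroid markers at or below 0.528 CPM. Samples of replicate 3 stood apart from those of replicates 1 and 2 in several genes described here, in every group. In ctrl, for example, Scd2 stood at 21.0 CPM in replicate 3 against 118 and 132 CPM in the others, and Cd74 at 243 CPM against 95.1 and 76.0 CPM. As these are bulk samples, a change in the share of a cell state and a change in RNA per cell cannot be told apart.

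The interaction was negative for Scd2 and Clspn, the 2 genes called at an adjusted p under 0.05 (edgeR quasi-likelihood F-test, Benjamini-Hochberg over all 12418 genes). This was 0.0161% of genes on the negative and 0% on the positive side. Of all genes, 387 (3.12%) had a negative and 293 (2.36%) a positive interaction at an unadjusted p under 0.05. At an unadjusted p under 0.001 these were 24 and 9 genes. The 4OHT effect alone was called in 119 genes without Fer1, of which 37 were higher (0.298%) and 82 lower (0.66%), and in 1 gene with Fer1 (0.00805%). Fer1 against ctrl had 0 genes called (0%) by edgeR, DESeq2 or limma-voom and 119 genes at an unadjusted p under 0.05. The 2 interaction calls were lost when replicate 1 or replicate 2 was left out (0 genes each time) and when the replicate number was not a term of the model (0 genes), while 5 genes, Scd2 but not Clspn among them, were called without replicate 3. With 1 replicate left out the interaction of Scd2 lay between −2.46 and −2.17 and that of Clspn between −1.73 and −1.65. DESeq2 called 62 genes.

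An interaction can come from any of the 4 groups, and here the 4OHT group was the one that stood apart. For 558 of the 680 genes with an interaction p under 0.05 (82.06%), 4OHT lay farther from the mean of the other groups than any other group did, against 37.23% of all genes. For the 33 genes at p under 0.001 it was 32 genes. The group farthest away was ctrl for 7.059%, 4OHT+Fer1 for 8.824% and Fer1 for 2.059% of the 680. Its sign was the same in all 3 replicate numbers for 624 of the 680 genes, a description only, since the same differences chose these genes.

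**Figure D1:**
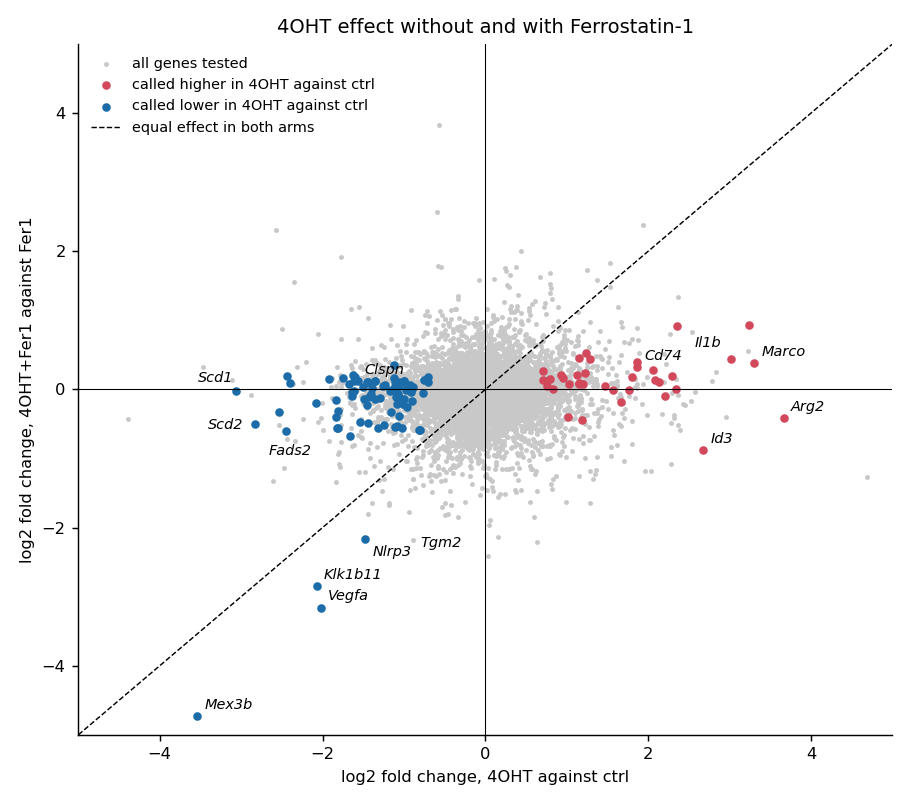
Each point is 1 of the tested genes, with the log2 fold change of 4OHT against ctrl on the x axis and of 4OHT+Fer1 against Fer1 on the y axis; coloured points are genes called in the arm without Fer1, and the dashed line marks equal effects. Most coloured points lie near 0 on the y axis, while Vegfa, Klk1b11, Nlrp3 and Mex3b lie far below 0 on it. In all, 11 genes, none of them called, fall outside the axes, which end at 5.

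Scd2, which encodes a stearoyl-CoA desaturase that makes monounsaturated fatty acids, had the smallest interaction p of all genes. In replicates 1, 2 and 3 it stood at 118, 132 and 21.0 CPM in ctrl and at 19.6, 14.8 and 3.20 CPM in 4OHT. With Fer1 it stood at 118, 134 and 21.3 CPM in Fer1 and at 98.9, 92.2 and 12.8 CPM in 4OHT+Fer1. Within each replicate number 4OHT was lowest of the 4 groups, although the level of replicate 3 overlapped between groups. Scd2 fell 7.13-fold with 4OHT (log2 fold change −2.83 ± 0.18 SE, n = 3 per group, adjusted p = 8.35e-05, edgeR quasi-likelihood F-test, Benjamini-Hochberg). In the arm with Fer1 the log2 fold change was −0.50 ± 0.16, which left an interaction of −2.34 ± 0.24 (95% interval −2.86 to −1.82, adjusted p = 0.0105 by the same edgeR test). The gene lies at chr19:44293674-44306864 on the plus strand of GRCm38.

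Clspn encodes claspin, the adaptor that carries the replication checkpoint signal to CHK1, and belongs to the list of DNA replication genes. Its levels were 38.9, 50.7 and 38.5 CPM in ctrl against 13.4, 16.6 and 13.1 CPM in 4OHT. In the other arm it had 34.5, 45.1 and 39.7 CPM in Fer1 against 39.8, 44.7 and 44.3 CPM in 4OHT+Fer1. The 4OHT values lay below all other 9 samples, of which the lowest had 34.5 CPM, and the 3 other groups overlapped. Most genes here and below were picked by small p-values, which favours such gaps, and their share over all genes was not counted. As a weaker condition, 4OHT was lowest within every replicate number for 5.63% of all genes and highest for 4.45%. Clspn fell 2.97-fold with 4OHT (log2 fold change −1.57 ± 0.14), the change with Fer1 was 0.12 ± 0.14, and the interaction was −1.69 ± 0.20 (95% interval −2.13 to −1.25, adjusted p = 0.0248, edgeR quasi-likelihood F-test, Benjamini-Hochberg). Its position is chr4:126556935-126593903 on the plus strand (GRCm38).

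Fads2, Arg2 and Id3 came next, with an adjusted p of 0.0991 each (edgeR quasi-likelihood F-test, Benjamini-Hochberg), short of the threshold. Fads2, the delta-6 desaturase of polyunsaturated fatty acids, had 48.9, 72.8 and 21.1 CPM in ctrl, 12.6, 12 and 2.69 CPM in 4OHT, 56.3, 65.5 and 20.6 CPM in Fer1 and 39.0, 39.1 and 14.2 CPM in 4OHT+Fer1. All 4OHT samples were below the other 9 samples, the lowest of which was replicate 3 of 4OHT+Fer1. The interaction of Fads2 was −1.84 ± 0.27, with −2.45 without and −0.60 with Fer1. Arg2, the mitochondrial arginase, was near the limit of detection in ctrl with 0.305, 0.826 and 0.552 CPM, and had 8.60, 8.65 and 4.87 CPM in 4OHT. With Fer1 the values were 2.01, 1.48 and 1.57 CPM in Fer1 and 1.56, 0.850 and 1.35 CPM in 4OHT+Fer1. Here Fer1 alone lay above ctrl in every replicate number, by 1.56 on the log2 scale, so the interaction of 4.08 ± 0.60 rested in part on a different baseline. Arg2 overlaps Vti1b on the opposite strand, and the strand setting of the counting is not given in the sources used here. Id3, an inhibitor of basic helix-loop-helix transcription factors, had 5.60, 5.47 and 24.6 CPM in ctrl, 56.7, 61.8 and 73.4 CPM in 4OHT, 9.15, 11.0 and 14.6 CPM in Fer1 and 7.18, 3.82 and 8.13 CPM in 4OHT+Fer1. It was higher in each 4OHT sample than in any of the other 9, and its interaction was 3.55 ± 0.54. The log2 change was 2.68 ± 0.38 without Fer1 and −0.87 ± 0.38 with Fer1, so part of the interaction came from the arm with Fer1.

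**Figure D2:**
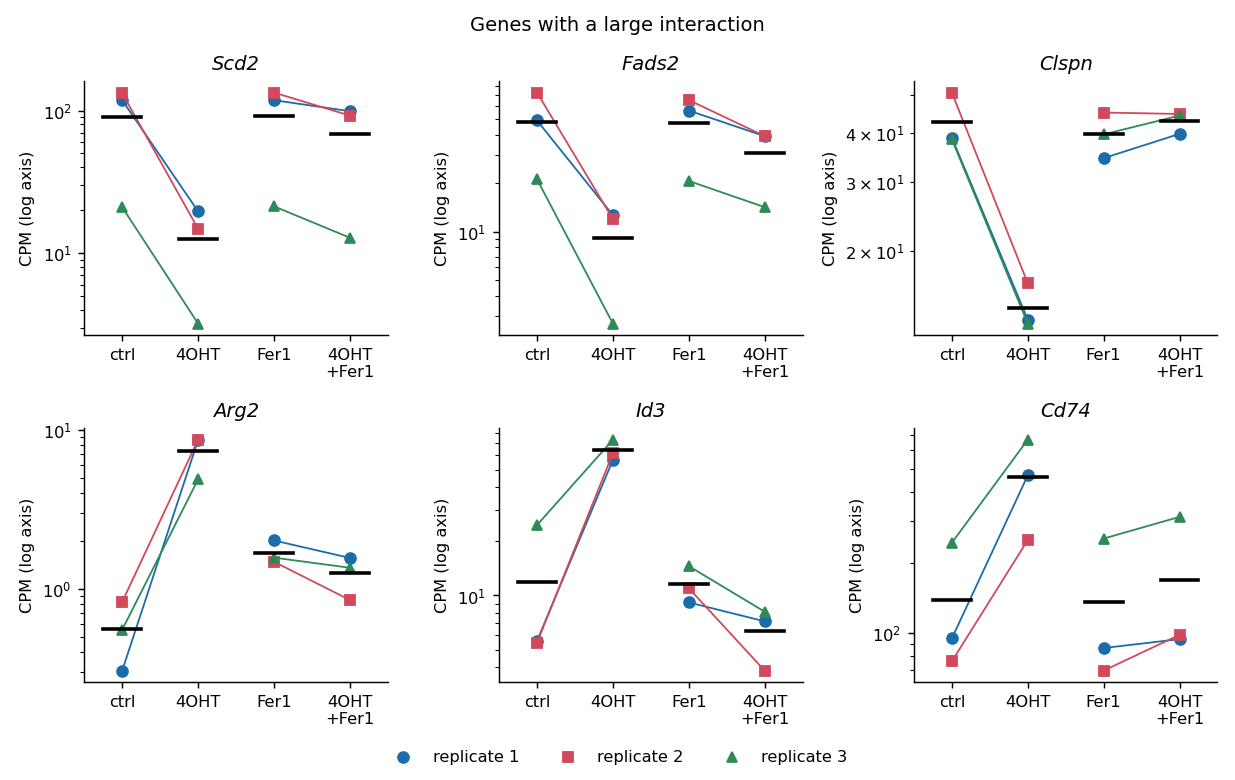
CPM on a log axis for 6 genes with a large interaction, in the 4 groups; points are samples, coloured by replicate number, lines join ctrl to 4OHT and Fer1 to 4OHT+Fer1 within a replicate number, and black bars are means of 3 samples. Scd2, Fads2 and Clspn drop along the left lines and drop less or not at all along the right ones, while Arg2, Id3 and Cd74 climb along the left lines.

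Genes of the cell cycle were frequent among those ranked first by interaction p. DNA replication genes, which build and run the replication fork, had 23 of 43 tested members with a negative interaction at an unadjusted p under 0.05 and 0 with a positive one, against 3.12% and 2.36% of all genes. The median interaction of the list was −0.83, against 0.02 over all genes, and 42 of its 43 members were below 0. Mitosis genes (spindle, kinetochore, chromosome condensation) had 23 of 41 members with a negative and 0 with a positive interaction at that threshold, with a median of −1.09. Genes of homologous recombination and Fanconi repair had 10 of 25 and 0 of 25, with a median of −0.88. Clspn was the single called member of these lists, in which the other members did not pass the adjusted threshold. Among the 50 genes with the smallest interaction p that were not predicted genes, 14 belonged to these 3 lists (28%), against 109 of 10874 tested (1.002%). Among the first 200 it was 37 (18.5%). The lists were chosen with earlier results of these data known, so these shares are a description only.

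The effect lay in the arm without Fer1. The median log2 fold change of 4OHT against ctrl was −0.85 for DNA replication, −1.17 for mitosis and −0.95 for homologous recombination, while the median of 4OHT+Fer1 against Fer1 was −0.01, −0.05 and −0.04, beside −0.01 over all genes. Without Fer1, 10 of 43 replication, 7 of 41 mitosis and 3 of 25 repair genes were called as lower, beside 0.66% of all genes. The 4OHT sample was the lowest of the 4 groups within every replicate number for 28 of 43 replication genes and 31 of 41 mitosis genes, against 5.63% of all genes. Replicates were alike for DNA replication, with median interactions of −0.65, −0.79 and −0.71 in replicates 1, 2 and 3. For mitosis they were −0.69, −0.53 and −2.39, so the size of the list's median came largely from replicate 3. With replicate 1, 2 or 3 left out, the members with a negative interaction at p under 0.05 numbered 18, 14 and 23 of 43 for replication, 19, 22 and 18 of 41 for mitosis and 6, 7 and 8 of 25 for repair, beside 1.53%, 2.06% and 4.57% of all genes in those fits.

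The cell cycle genes ranked first spanned the steps of DNA synthesis and division. Rad51ap1, a DNA repair protein, had 26.9, 27.5 and 22.9 CPM in ctrl, 9.66, 9.20 and 6.02 CPM in 4OHT, 23.8, 31.4 and 26.3 CPM in Fer1 and 27.7, 26.9 and 24.5 CPM in 4OHT+Fer1. Rrm1, the large subunit of ribonucleotide reductase, had 78.0, 92.1 and 67.9 CPM in ctrl, 36.9, 42.3 and 28.1 CPM in 4OHT, 67.1, 96.2 and 73.3 CPM in Fer1 and 76.0, 82.8 and 73.3 CPM in 4OHT+Fer1. Rad51ap1 and Rrm1 were both lower in 4OHT than in all other samples, and the other 3 groups overlapped. Their interactions were −1.59 ± 0.25 and −1.14 ± 0.21. Rrm1 shares its strand and place with the unconfirmed gene model Gm45399, so its reads may be divided. Mcm3, a subunit of the replicative helicase, stood at 91.2, 126 and 66.3 CPM in ctrl, 49.6, 54.7 and 42.3 CPM in 4OHT, 86.9, 123 and 70.8 CPM in Fer1 and 90.7, 106 and 73.0 CPM in 4OHT+Fer1. Ttk, the MPS1 kinase of the spindle checkpoint, had 37.8, 39.3 and 35.4 CPM in ctrl, 13.9, 16.2 and 6.92 CPM in 4OHT, 29.1, 39.0 and 41.3 CPM in Fer1 and 36.1, 40.2 and 42.1 CPM in 4OHT+Fer1. Mcm3 and Ttk were likewise lower in 4OHT than in all other samples, with interactions of −0.88 ± 0.20 and −1.73 ± 0.35.

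Other genes of the 3 lists gave the same order. Tyms, the thymidylate synthase, had an interaction of −1.29 ± 0.27. Among mitosis genes it was −1.47 ± 0.30 for the condensin subunit Smc2, −1.42 ± 0.30 for the kinetochore gene Spc25 and −0.97 ± 0.21 for Incenp of the chromosomal passenger complex. In repair it was −1.30 ± 0.29 for the helicase Brip1 and −1.57 ± 0.45 for Brca1. Each of these genes was lower in the 3 4OHT samples than in all other 9, a description only, since they were picked by their interaction p. All had an adjusted p between 0.282 and 0.449 (edgeR quasi-likelihood F-test, Benjamini-Hochberg). Outside the lists, Ezh2, the methyltransferase of Polycomb complex PRC2, had 89.4, 86.5 and 89.5 CPM in ctrl and 45.6, 44.6 and 42.1 CPM in 4OHT, with 73.0 to 103 CPM in the arm with Fer1 and an interaction of −1.12 ± 0.20. Esco2, which acetylates cohesin, Atad2, a chromatin ATPase, and Lmnb1, which encodes lamin B1, had interactions of −2.63 ± 0.48, −1.11 ± 0.21 and −1.48 ± 0.30 and were also lower in every 4OHT sample than elsewhere. The histone gene H2ac8 had −1.78 ± 0.28, but histone H2A genes are near-identical copies and its count is uncertain. Of the regulators of G1, 4 of 26 tested members had a negative interaction at p under 0.05, beside 3.12% of all genes. These were Rbl1 (−0.86 ± 0.27), E2f7 (−1.20 ± 0.47), Ccne1 (−1.55 ± 0.53) and Ccne2 (−1.58 ± 0.63). E2f7 and Ccne2 did not have 1 sign in all 3 replicates, and the count was 2 without replicate 1 and 0 without replicate 2.

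**Figure D3:**
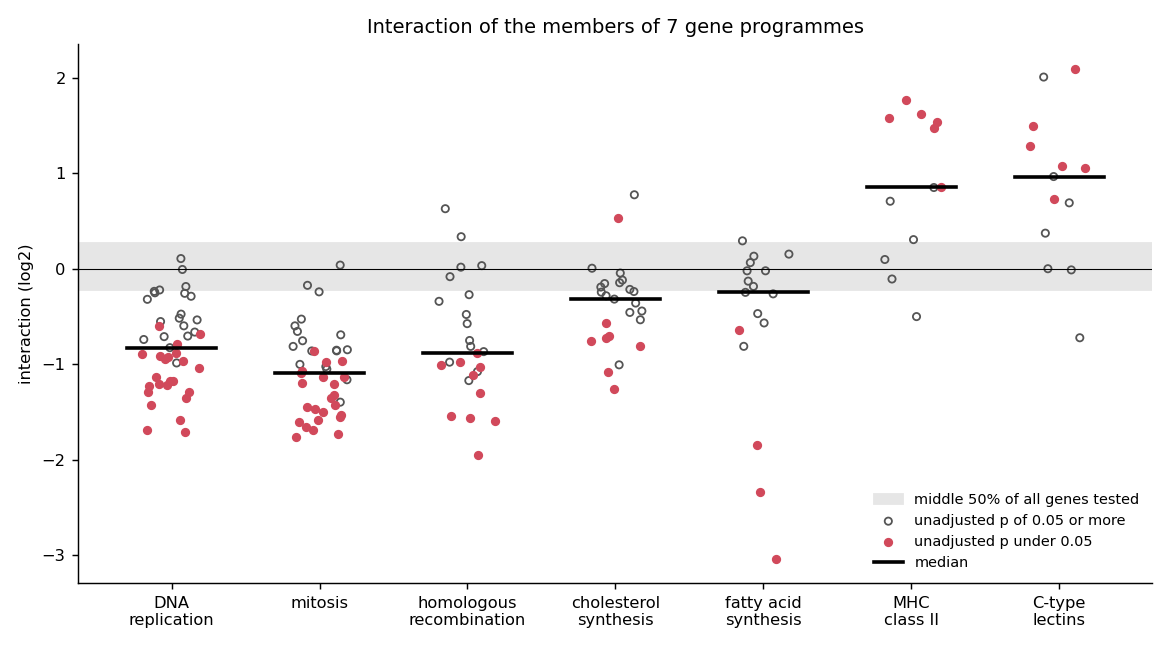
Interaction (log2) of every tested member of 7 gene programmes; filled points have an unadjusted p under 0.05, black bars are list medians and the grey band holds the middle 50% of all genes tested. Members of the replication, mitosis and recombination lists lie mostly below the band, members of the MHC class II and C-type lectin lists mostly above it, and in fatty acid synthesis 3 genes lie far below the rest.

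Promoters of the tested genes were searched on both strands for short letter patterns. The window ran from 250 bases before to 50 bases after the start of each gene in RefSeq (GRCm38.p6). A match describes the letters only. The CHR pattern (TTTGAA) was present in 25 of the 34 mitosis genes that had an entry (73.5%), against 12.2% of the promoters of 9210 tested genes. It was also present in 5 of 11 C-type lectin genes (45.5%), a list with a positive median interaction, but in 2 of 20 repair genes (10%). An E2F pattern (TTTCCCGC or TTTGGCGC) was present in 10 of 34 replication genes (29.4%) and 1 of 34 mitosis genes (2.94%), against 3.22%. The CCAAT box (CCAAT), which NF-Y binds, was present in 61.8% of replication, 73.5% of mitosis and 65% of repair genes, against 39.5%. This was not particular to lists with a negative interaction. The box was present in 81.2% of MHC class I genes (median interaction −0.09) and 66.7% of MHC class II genes (median interaction 0.85). Over the lists searched, the share ran from 0% (efferocytosis) to 83.3% (cholesterol synthesis). The promoters of 3 genes described above are shown, because they carry different patterns while the genes shared the direction of the interaction; capitals mark CCAAT boxes in Clspn (chr4:126556730-126557029, plus strand), E2F patterns and CCAAT boxes in Mcm3 (chr1:20820263-20820562, minus strand), and 1 CHR and 2 CCAAT boxes in Ttk (chr9:83834439-83834738, plus strand).
Clspn: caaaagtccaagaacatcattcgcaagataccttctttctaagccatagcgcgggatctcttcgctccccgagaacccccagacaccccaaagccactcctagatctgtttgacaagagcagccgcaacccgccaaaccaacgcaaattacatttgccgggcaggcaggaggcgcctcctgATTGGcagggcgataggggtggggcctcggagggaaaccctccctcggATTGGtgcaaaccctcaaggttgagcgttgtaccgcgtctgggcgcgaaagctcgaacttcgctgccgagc
Mcm3: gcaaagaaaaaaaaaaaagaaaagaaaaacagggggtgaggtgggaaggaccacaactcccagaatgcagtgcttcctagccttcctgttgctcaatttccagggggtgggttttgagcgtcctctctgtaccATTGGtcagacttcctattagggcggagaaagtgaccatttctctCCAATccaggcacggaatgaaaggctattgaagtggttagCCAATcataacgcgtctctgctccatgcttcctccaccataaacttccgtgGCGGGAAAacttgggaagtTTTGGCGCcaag
Ttk: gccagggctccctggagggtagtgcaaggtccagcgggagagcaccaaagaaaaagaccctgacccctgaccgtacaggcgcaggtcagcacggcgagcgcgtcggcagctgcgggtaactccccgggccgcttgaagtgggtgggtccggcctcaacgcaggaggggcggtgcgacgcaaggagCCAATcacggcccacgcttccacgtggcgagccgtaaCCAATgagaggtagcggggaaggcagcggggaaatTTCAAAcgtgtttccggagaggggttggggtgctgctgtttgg
In Mcm3 the capitals near the end are the 2 E2F patterns, and in Ttk the last capitals are the CHR in reverse orientation.

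Lipid synthesis genes were lower in the 4OHT group too, desaturases and cholesterol enzymes among them. In fatty acid synthesis and desaturation, 4 of 17 tested members (Scd2, Fads2, Scd1 and Acsl3) had a negative interaction at an unadjusted p under 0.05. None had a positive interaction at that threshold, and the shares over all genes were 3.12% and 2.36%. The median of the list was −0.25, with replicate medians of −0.16, −0.83 and −0.05, so its size came largely from replicate 2. Scd1, the other main stearoyl-CoA desaturase, had 18.4, 12.9 and 0.773 CPM in ctrl, 1.59, 1.75 and 0.128 CPM in 4OHT, 13.0, 13.4 and 1.23 CPM in Fer1 and 9.79, 11.7 and 2.08 CPM in 4OHT+Fer1. Replicate 3 of each group was close to the detection limit, and 4OHT was the lowest group within each replicate number. Scd1 fell 8.38-fold with 4OHT, changed by −0.03 ± 0.35 on the log2 scale with Fer1 and had an interaction of −3.04 ± 0.52 (adjusted p = 0.148, edgeR quasi-likelihood F-test, Benjamini-Hochberg). Acsl3, which activates long-chain fatty acids, had an interaction of −0.65 ± 0.26. Of the 4OHT effect on the log2 scale, 0.936% was left with Fer1 for Scd1, 17.5% for Scd2 and 24.7% for Fads2, and in the arm with Fer1 2 members of the list were lower at p under 0.05.

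Cholesterol synthesis genes were lower with 4OHT in both arms. The list had 7 of 25 members with a negative interaction at p under 0.05 and 1 with a positive one, against 3.12% and 2.36% of all genes. Its median interaction was −0.32, with replicate medians of −0.32, −0.81 and 0.05, so replicate 3 did not share the sign. The median 4OHT effect of the list was −0.90 without Fer1 and −0.47 with Fer1. In the arm with Fer1, 11 of 25 members were lower and 0 higher at p under 0.05, against 1.4% and 0.499% of all genes, though none passed the adjusted threshold. Of the 25 members, 10 were called as lower without Fer1, all kept the sign with Fer1, and 20.6% to 73.3% of the log2 effect was left (median 42%). The same share for called replication genes was −14.6% to 35.7% (median 6.49%) and for called mitosis genes −8.71% to 20.1% (median −4.97%). Whether these shares differ between lists was not tested. The 7 negative interactions rested on few libraries: 1 to 6 members reached p under 0.05 when 1 replicate was left out, while in the arm with Fer1 8 or 9 members stayed lower at that threshold. With no replicate block in the model, 0 of 25 members reached it in either of these counts.

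Single genes of the pathway ranged from mostly lost to mostly kept. Acat2, the cytosolic acetoacetyl-CoA thiolase, had 47.5, 45.5 and 11.9 CPM in ctrl, 15.5, 13.9 and 5.0 CPM in 4OHT, 44.1, 44.6 and 15 CPM in Fer1 and 24.8, 35.6 and 12.4 CPM in 4OHT+Fer1. Its interaction was −1.08 ± 0.27, with 30.2% of the effect left. Fdps, the farnesyl diphosphate synthase, had 149, 133 and 41.5 CPM in ctrl, 55.2, 46.3 and 24.2 CPM in 4OHT, 144, 137 and 56.2 CPM in Fer1 and 103, 113 and 31.7 CPM in 4OHT+Fer1. Fdps thus sat between the arms' extremes in 4OHT+Fer1, with an interaction of −0.73 ± 0.25 and 41.6% left. It overlaps Gm43738 on the same strand. Nsdhl, a sterol dehydrogenase, and Stard4, a cholesterol transfer protein, had interactions of −0.81 ± 0.24 and −0.70 ± 0.23. Hmgcs1, the HMG-CoA synthase, had 188, 183 and 84.0 CPM in ctrl, 98.3, 95.2 and 56.5 CPM in 4OHT, 188, 166 and 101 CPM in Fer1 and 122, 132 and 58.6 CPM in 4OHT+Fer1. It was lower with 4OHT in every replicate number of both arms. Its log2 fold change was −0.82 ± 0.14 without and −0.58 ± 0.14 with Fer1 (unadjusted p = 0.00167 by edgeR), and the interaction of −0.24 had a 95% interval from −0.67 to 0.20. Msmo1, the sterol methyl oxidase, gave −0.81 ± 0.13 and −0.59 ± 0.13 with an interaction interval from −0.61 to 0.17. For both genes the interval includes 0 as well as the loss of most of the effect.

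The promoter of Hmgcs1 is shown as that of a sterol gene lower with 4OHT in every replicate number of both arms: its capitals are 4 CCAAT boxes and 1 match to a sterol regulatory element pattern (TCACNCCAC), at chr13:119690101-119690400 on the plus strand of GRCm38.p6.
Hmgcs1: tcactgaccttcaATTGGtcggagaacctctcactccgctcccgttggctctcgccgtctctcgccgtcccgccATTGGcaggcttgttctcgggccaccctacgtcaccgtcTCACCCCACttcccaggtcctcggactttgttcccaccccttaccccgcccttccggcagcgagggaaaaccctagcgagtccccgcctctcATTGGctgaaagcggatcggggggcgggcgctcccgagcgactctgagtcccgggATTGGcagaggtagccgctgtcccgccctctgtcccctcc
A CCAAT box was present in 15 of the 18 cholesterol genes with an entry (83.3%) and in 10 of 14 fatty acid genes (71.4%), against 39.5% of all. MHC class I genes had it in 81.2%. The sterol pattern was present in 1 of 18 cholesterol and 0 of 14 fatty acid genes, against 1.03%.

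MHC class II genes load and present peptides to helper T cells. Of 12 members, 6 had a positive interaction at p under 0.05 and 0 a negative one, against 2.36% and 3.12% of all genes. The median interaction was 0.85, and the median 4OHT effect was 0.79 without and −0.01 with Fer1. Cd74, the invariant chain, had 95.1, 76.0 and 243 CPM in ctrl and 469, 249 and 666 CPM in 4OHT. With Fer1 it had 86.6, 69.4 and 253 CPM in Fer1 and 94.4, 98.5 and 313 CPM in 4OHT+Fer1. The 4OHT sample was the highest within each replicate number, although replicate 2 of 4OHT lay below replicate 3 of Fer1 and 4OHT+Fer1. Cd74 rose 3.63-fold with 4OHT, and its interaction was 1.54 ± 0.30 (adjusted p = 0.261, edgeR quasi-likelihood F-test, Benjamini-Hochberg). Ciita, the transactivator of these genes, had 12.3, 7.64 and 36.0 CPM in ctrl, 39.9, 31.7 and 64.9 CPM in 4OHT, 10.9, 9.71 and 43.8 CPM in Fer1 and 12.1, 8.60 and 43.2 CPM in 4OHT+Fer1, with an interaction of 1.58 ± 0.36. Ciita overlaps Dexi on the opposite strand. The class II chains H2-Aa and H2-Ab1 had interactions of 1.76 ± 0.44 and 1.62 ± 0.42. With replicate 1, 2 or 3 left out, 4, 5 and 6 of the 12 genes were positive at p under 0.05. The positive share over all genes in those fits was 0.916%, 1.47% and 5.18%. MHC class I genes had 0 of 19 positive and 1 negative.

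C-type lectin receptors sense fungal and damaged-cell glycans. Of 13 members, 6 had a positive interaction at p under 0.05 and 0 a negative one, against 2.36% and 3.12% of all genes. The median was 0.97. Clec4n, which encodes dectin-2, had 15.1, 38.1 and 103 CPM in ctrl, 146, 179 and 216 CPM in 4OHT, 21.7, 33.3 and 102 CPM in Fer1 and 16.7, 45.7 and 131 CPM in 4OHT+Fer1. Clec7a, which encodes dectin-1, had 106, 109 and 233 CPM in ctrl, 184, 225 and 683 CPM in 4OHT, 121, 89.5 and 270 CPM in Fer1 and 134, 99.5 and 266 CPM in 4OHT+Fer1. Clec4n was higher in every 4OHT sample than in the other 9, whereas Clec7a was higher only within each replicate number. The interactions were 2.10 ± 0.52 and 1.06 ± 0.27, and Clec4a3 and Clec2d had 1.08 ± 0.32 and 1.29 ± 0.41. With replicate 1, 2 or 3 left out, 4, 6 and 9 members of the list were positive at p under 0.05. The positive share over all genes in those fits was 0.916%, 1.47% and 5.18%. Without replicate 2, 1 member was negative. The scavenger receptor Marco, which binds bacteria and particles, had 0.509, 0.516 and 2.10 CPM in ctrl, 4.46, 9.20 and 11.5 CPM in 4OHT, 0.201, 0.633 and 2.24 CPM in Fer1 and 0, 0.850 and 3.54 CPM in 4OHT+Fer1. It was the 1 of 12 scavenger receptors with an interaction p under 0.05, at 2.92 ± 0.90.

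Interleukin-1 and inflammasome genes did not move as a list, with 1 of 18 members positive, 1 negative and a median of −0.03. Over all genes 2.36% were positive and 3.12% negative at p under 0.05. The positive member of the list was Il1b, the gene of the cytokine IL-1β. It had 2.65, 2.99 and 17.1 CPM in ctrl, 37.7, 34.6 and 50.9 CPM in 4OHT, 2.31, 3.17 and 10.5 CPM in Fer1 and 2.29, 3.82 and 18 CPM in 4OHT+Fer1. All 4OHT samples were above the other 9, the highest of which had 18 CPM. Il1b rose 8.10-fold without Fer1 and had a log2 change of 0.44 ± 0.43 with it, and the interaction was 2.58 ± 0.59 (95% interval 1.27 to 3.89, adjusted p = 0.363, edgeR quasi-likelihood F-test, Benjamini-Hochberg). Within replicates it was 3.74, 3.19 and 0.798. The negative member of the list was the DNA sensor Aim2 at −0.50 ± 0.17.

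Other regulators on the positive side were spread over several lists. Of all genes, 2.36% had a positive and 3.12% a negative interaction at p under 0.05. With replicate 1, 2 or 3 left out, the positive share over all genes was 0.916%, 1.47% and 5.18%. NF-kB subunits and inhibitors had 3 of 18 positive and 0 negative, with Relb at 1.06 ± 0.27 and Nfkb2 at 0.63 ± 0.22, both subunits of the non-canonical branch, and the kinase Ikbke at 0.76 ± 0.21. The count was 1 without replicate 2. For Ikbke the log2 change was 0.38 without and −0.38 with Fer1, and 4OHT+Fer1 was the group farthest from the others. Macrophage transcription factors and CSF receptors had 4 of 18 positive, among them Csf2rb, the common beta chain of the GM-CSF receptor (0.64 ± 0.20), Cebpa (0.57 ± 0.19), Irf5 (1.03 ± 0.37) and Rara (0.77 ± 0.31). That count fell to 0 without replicate 1 or replicate 2. In Irf5 the difference came mainly from the arm with Fer1, where the log2 change was −0.80 against 0.23 without Fer1. The protease list had 3 of 15 positive and 0 negative with a median of 0.70: the urokinase receptor Plaur (1.85 ± 0.50), the inhibitor Timp3 (1.69 ± 0.46) and Mmp2 (3.35 ± 1.43), which was at or below 3.47 CPM everywhere. The count was 2 to 7 with 1 replicate left out. In the Id and TGF-beta list 3 of 23 were positive, Id3, Smad6 (1.80 ± 0.72) and Bmp2 (2.76 ± 0.99). Smad6 and Bmp2 were low, at most 2.43 and 1.55 CPM in ctrl and 3.92 and 4.81 CPM in 4OHT, scaled over all 14 samples. With a minimum count of 30 the list had 1 positive of 20. Of NRF2 targets 4 of 21 were positive and 1 negative, and of immediate early genes 3 of 17 and 1. The positive counts fell to 0 and 1 for NRF2 targets, and to 1 each time for immediate early genes, without replicate 1 or replicate 2.

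Genes outside these lists that ranked high were Cytip, a regulator of leukocyte adhesion (1.42 ± 0.26), the integrin Itgal (1.42 ± 0.28), the BMP antagonist Grem1 (2.02 ± 0.40) and the matrix proteoglycan Vcan (2.34 ± 0.53). For Itgal the log2 change was 1.02 without and −0.40 with Fer1, and its 4OHT samples overlapped the others. Cytip had 18.2, 16.7 and 37.5 CPM in ctrl, 54.7, 60.9 and 76.5 CPM in 4OHT, 18.4, 20.4 and 26.2 CPM in Fer1 and 17.1, 22 and 28.8 CPM in 4OHT+Fer1, so that every 4OHT sample was above all others. The prostaglandin E2 receptor Ptger3 had 0.305, 0.619 and 2.21 CPM in ctrl, 4.78, 4.69 and 4.61 CPM in 4OHT, 0.804, 0.845 and 2.35 CPM in Fer1 and 0.729, 0.425 and 2.61 CPM in 4OHT+Fer1, with an interaction of 2.70 ± 0.77. Prdm1, a transcriptional repressor, and Ifitm1, an interferon-induced membrane protein, had interactions of 1.11 ± 0.28 and 1.86 ± 0.53. The iron exporter Slc40a1 had 1.18 ± 0.29 and the transferrin receptor Tfrc 0.82 ± 0.34. For Slc40a1 the log2 change was 0.86 without Fer1, which was not called, and −0.32 with it. Slc40a1 and Tfrc were the 2 of 18 iron and ferroptosis genes with an interaction p under 0.05, beside 5.48% of all genes. Jaml (2.66 ± 0.94) also had a p under 0.05, whereas Adam19 (1.71 ± 1.04), Irx3 (1.69 ± 0.88) and Cd274 (0.43 ± 0.26) did not. For Cd274, the checkpoint ligand PD-L1, the log2 change was 0.85 without Fer1 and 0.42 with it.

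Several lists had few or no members at an interaction p under 0.05, beside 5.48% of all genes. Toll-like receptors and adapters had 0 of 21 in either direction, though 16 of them lay above 0, with a median of 0.24. Oxidative phosphorylation had 0 of 23, with 13 above 0 and a median of 0.05. Interferon-stimulated genes had 1 of 31, Ifitm1, and 24 of 31 lay below 0. Their median was −0.22, for which the replicate medians were 0.06, −0.04 and −0.55. The medians over all genes lay at 0.02, with quartiles of −0.23 and 0.27.

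**Figure D4:**
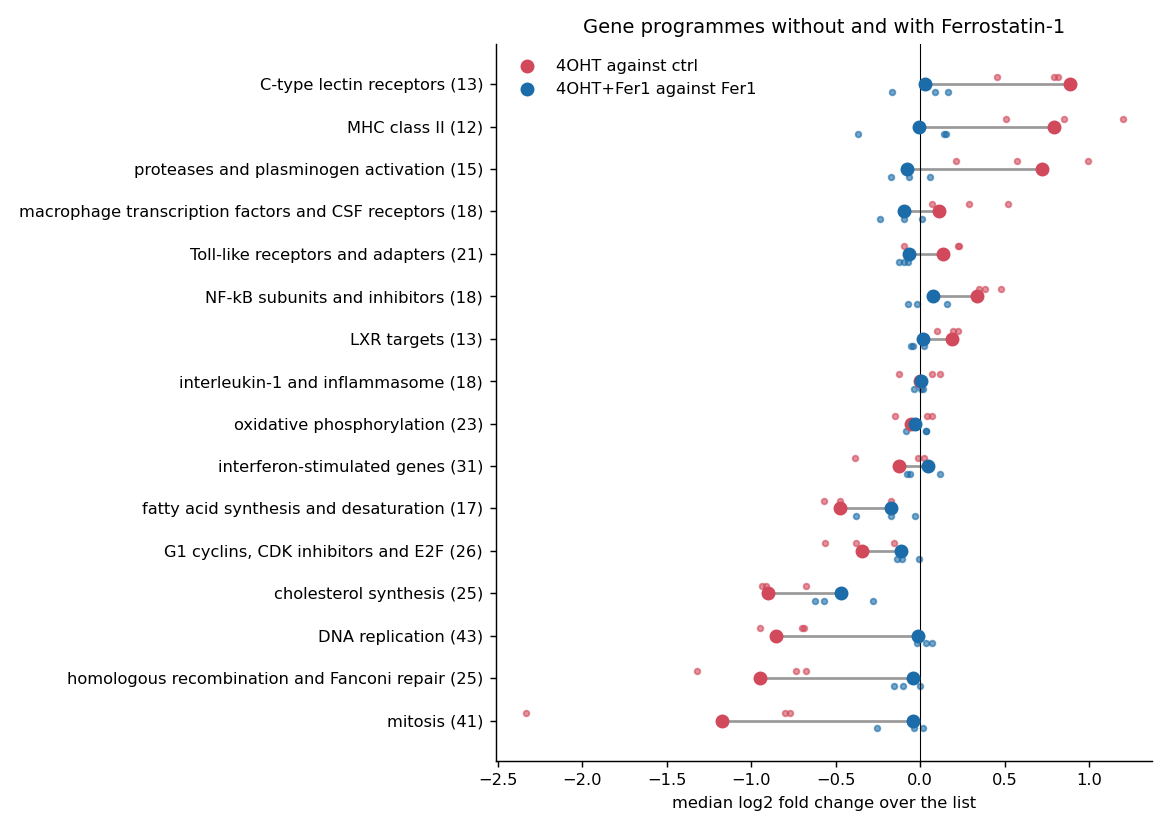
Median log2 fold change over each of 16 gene lists (number of tested members in brackets), for 4OHT against ctrl in red and 4OHT+Fer1 against Fer1 in blue; large points come from the fit over all 12 samples and small points are medians of the differences within replicates. Of the lists drawn, the large blue points lie near 0 apart from cholesterol synthesis at −0.47 and fatty acid synthesis at −0.18. Iron handling and NRF2 targets, which are not drawn, had medians of −0.19 each in that arm. The red mitosis point of replicate 3 stands far from those of replicates 1 and 2.

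Genes called in 4OHT against ctrl were followed into the libraries of the other arm, which shared no sample with the first. The 37 genes higher without Fer1 had a median log2 fold change of 1.47 there and 0.14 with Fer1. With Fer1, 29 of the 37 had the same sign and 1 of them, Gpr162, had an unadjusted p under 0.05 in that direction, beside 0.499% of all genes. In the opposite direction 1 of the 37, Id3, had an unadjusted p under 0.05, beside 1.4% of all genes. The 82 genes lower without Fer1 had medians of −1.30 and −0.05, 49 had the same sign and 15 of them had an unadjusted p under 0.05, beside 1.4% of all genes. The median over all genes in the arm with Fer1 was −0.01, and the share of each sign over all genes was not counted. The median share of the log2 effect left was 8.30% for the higher and 5.09% for the lower genes. These 119 genes were chosen by the arm without Fer1, which favours a smaller value in the other arm.

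A few genes called as lower without Fer1 were also low in 4OHT+Fer1. Vegfa, the vascular endothelial growth factor, had 40.2, 33.5 and 45.6 CPM in ctrl and 10.6, 10.8 and 7.94 CPM in 4OHT. With Fer1 it had 40.3, 31.4 and 24.9 CPM in Fer1 and 4.37, 2.44 and 3.96 CPM in 4OHT+Fer1. The groups with and without 4OHT did not overlap in either arm, and 4OHT+Fer1 was the lowest group. Vegfa fell 4.06-fold without Fer1 and 8.92-fold with Fer1 (log2 −3.16 ± 0.25, adjusted p = 0.00113, edgeR quasi-likelihood F-test, Benjamini-Hochberg), and was the 1 gene called in the arm with Fer1. That call was lost when replicate 1 or replicate 2 was left out. Its interaction was 1.14 ± 0.34, so that the effect was larger with Fer1, but this difference did not pass the adjusted threshold (adjusted p = 0.499 in the same edgeR test).

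Nlrp3, the sensor of the NLRP3 inflammasome, had 20.6, 24.8 and 25.5 CPM in ctrl, 9.98, 11.1 and 5.25 CPM in 4OHT, 25.7, 27.3 and 19.7 CPM in Fer1 and 8.12, 4.35 and 3.86 CPM in 4OHT+Fer1. It was lower with 4OHT in every replicate number of both arms, by −1.48 ± 0.28 without and −2.17 ± 0.29 with Fer1 on the log2 scale, and the 95% interval of its interaction ran from −0.19 to 1.57. Without Fer1, Nlrp3 fell while Il1b, of the same list, rose. The kallikrein gene Klk1b11 had 7.94, 9.08 and 1.66 CPM in ctrl, 2.02, 2.48 and 0.128 CPM in 4OHT, 7.34, 9.08 and 1.79 CPM in Fer1 and 0.729, 1.49 and 0.313 CPM in 4OHT+Fer1. Its counts are uncertain because mouse kallikrein genes have near-identical copies. In the arm with Fer1 Nlrp3 and Klk1b11 each reached 0.058 as adjusted p (edgeR quasi-likelihood F-test, Benjamini-Hochberg), just short of the threshold. Mex3b, an RNA-binding protein, had 1.57 to 2.82 CPM in Fer1, and 0, 0 and 0.208 CPM in 4OHT+Fer1, below the level of 3 counts. Tgm2, a transglutaminase, had 60.6, 96.9 and 28.8 CPM in ctrl, 17.1, 37.1 and 53.4 CPM in 4OHT, 68.7, 66.4 and 63.2 CPM in Fer1 and 5.62, 19.0 and 23.9 CPM in 4OHT+Fer1. It was lower with 4OHT in all replicates of the arm with Fer1 and in 2 of 3 without, and its interaction interval ran from −0.21 to 2.79. Gpr162, an orphan receptor, was the 1 called higher gene with an unadjusted p under 0.05 in both arms, at 33.0, 29.5 and 29.5 CPM in ctrl, 68.7, 78.5 and 70.6 CPM in 4OHT, 31.0, 26.3 and 36.9 CPM in Fer1 and 27.4, 51.7 and 58.5 CPM in 4OHT+Fer1. In replicate 1 it was not higher with 4OHT in the arm with Fer1.

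**Figure D5:**
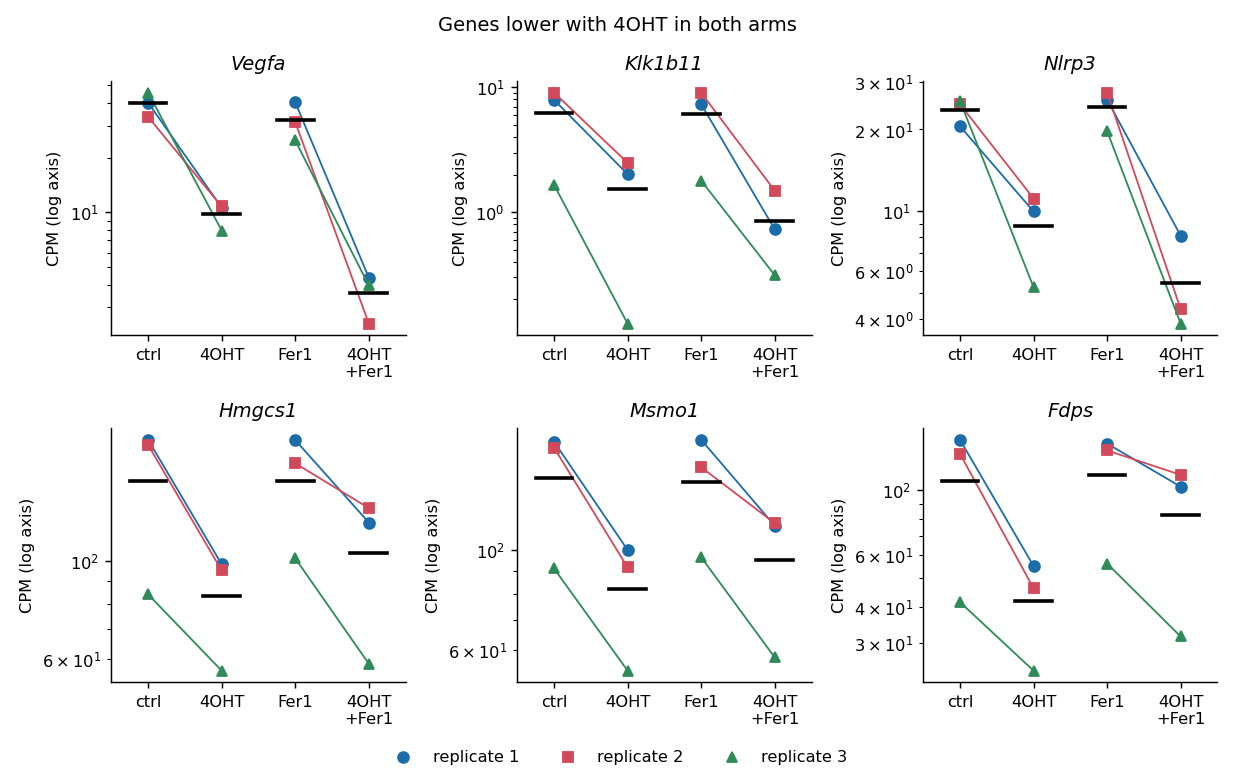
CPM on a log axis for 6 genes that were lower with 4OHT in both arms, drawn as in the plot of genes with a large interaction: points are samples by replicate number, lines join pairs of the same replicate number and black bars are means of 3 samples. Vegfa and Nlrp3 fall at least as steeply along the right lines as along the left ones, Klk1b11 does so in replicates 1 and 2 but not in replicate 3, and Hmgcs1, Msmo1 and Fdps end higher in 4OHT+Fer1 than in 4OHT.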

How the data were processed

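Libraries of pBMDM RNA were prepared with QuantSeq, which reads transcripts near their 3′ end, and sequenced as single-end reads of 50 bp. The authors aligned the reads with STAR 2.7.10a, ran Salmon 1.5.2 on the alignments (nf-core) and deposited its expected counts, that is estimated counts per gene that were not normalized. A human genome is named in the paper's methods, while the submitters' processing notes list human and mouse builds and the identifiers are those of mouse genes. Positions come from GRCm38 by gene identifier (100 of 101 named genes matched). A deposited table of the authors' DESeq2 comparisons and its 14 columns of per-sample CPM were not used.

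The expected counts were rounded to whole numbers, since 30109 values were not whole and the plan had spoken of counts. They were scaled by TMM, filtered with filterByExpr (minimum count 10) and passed to edgeR 4.0.16 under R 4.3.3 for quasi-likelihood F-tests, two-sided, in 1 model of the 4 groups with the replicate number as a block, as the study's model holds mouse ID. That the number is the mouse was assumed, so p-values measure the spread between these samples. Genes were called at an adjusted p under 0.05 (Benjamini-Hochberg over all genes tested) with no fold threshold. Differences within replicate numbers are log2 CPM with a prior count of 2. Limits set by 3 counts cover counting error only.

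The members and the 33 gene lists were chosen with earlier results of these data known, and counts over a list are given beside those over all genes. Named genes were those called in the interaction, the first 12 per direction by interaction p with 1 sign in all replicates, up to 4 members of each list with 2 or more members at p under 0.05 or 1 called, genes the study names, and genes called in the other comparisons. A few results are left out here. The steps were tested on simulated data. Alternatives were DESeq2 1.42.0, limma-voom (limma 3.58.1), other filters and scaling, no block, all 14 samples and each replicate left out.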

Additional observations from a re-analysis of the deposited data

Results flagged for a closer look

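The 4OHT effect on Scd2 differed between the arms without and with Fer1 by −2.34 ± 0.24 on the log2 scale (edgeR quasi-likelihood F-test, Benjamini-Hochberg, adjusted p = 0.0105), with the same sign in all 3 replicate numbers. For Clspn the difference between the arms was −1.69 ± 0.20 (adjusted p = 0.0248 in the same edgeR test), again with 1 sign in all 3. These are the 2 results that stood out by a test of the difference itself.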

How the results depend on the processing

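The number of genes with a called interaction was 2, and it was 62 with DESeq2, 22 with no filter on low counts, 4 with all 14 samples in the model and 0 to 5 with 1 replicate left out (0 without replicate 1 or 2). The 119 calls of the 4OHT effect without Fer1 became 399, 262 and 192 under the first 3 of these and 0 to 188 with 1 replicate left out. The 1 call with Fer1 became 11 with DESeq2, 3 with limma-voom, 8 with no filter, 3 with all 14 samples and 0 to 1 with 1 replicate left out. Fer1 against ctrl had 0 calls in every setting run. As the group that stands apart, 4OHT was counted for 75.31% of the genes with no filter, 87.76% with a minimum count of 30 and 68.78% to 78.67% with 1 replicate left out, against 82.06%. The causes were not tested, beyond fewer samples where a replicate was left out.

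Without the replicate block the interaction had 0 calls and the 4OHT effect without Fer1 had 7. Deviations from the group means correlated between samples of the same number with a median r of 0.324 over 18 pairs (lowest 0.0856, highest 0.667), and between samples of other numbers with a median of −0.18 over 36 pairs. At an unadjusted p under 0.05 and with no block, 18 of 43 replication and 20 of 41 mitosis genes had a negative interaction, while the cholesterol, fatty acid, MHC class II and C-type lectin lists had 0 in their direction, and the cholesterol list had 0 of 25 lower members, in place of 11, in the arm with Fer1. These list counts were added after the values had been seen. Of the values of named genes under these settings, 679 kept their direction and their side of the threshold, 46 newly passed it and 7 lost it, all 7 in Scd2 and Clspn. A missing adjusted p in DESeq2 was counted as kept. The other named genes were not called in the main fit, so they could only stay uncalled or newly pass, and 679 is no measure of stability. None reversed.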

Other observations

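The 2 samples in fresh medium entered no comparison above, and the levels given here are scaled over all 14 samples. Scd2 had 4.83 and 2.56 CPM, Fads2 2.29 and 2.34 CPM and Clspn 5.59 and 7.45 CPM in medium. Id3 had 286 and 216 CPM, Cd74 949 and 721 CPM and Il1b 37.3 and 52.6 CPM. Vegfa had 57 and 67.3 CPM and Nlrp3 34.5 and 31.0 CPM, and Arg2 had 0.381 and 3.23 CPM. Within replicates 1 and 2, the median log2 difference of medium minus Fer1 was −3.40 and −3.22 over the mitosis genes, −1.61 and −1.71 over the cholesterol genes and 1.27 and 1.14 over the MHC class II genes. For 4OHT minus ctrl the same lists had −0.80 and −0.76, −0.94 and −0.90, and 1.19 and 0.52, with the same sign as medium. Interferon-stimulated genes had 1.28 and 1.25 for medium minus Fer1 beside −0.02 and 0.04 for 4OHT minus ctrl. With 2 medium samples, these are values without a test.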
